A study of Homo sapiens with 12 samples.

Results

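The genes described here encode the proteasome and VCP. A gene was a member if its row was protein coding and its name was VCP or one of PSMA to PSMG followed by a number, without an antisense or P suffix. This gave 49 of the 60675 genes in the deposited count tables. The name PSMC3IP and the name PSME3IP1 were left out by the suffix. The members were the 8 alpha subunits and 7 constitutive beta subunits of the 20S core, 4 inducible beta subunits, 4 core assembly chaperones, 6 ATPases and 11 non-ATPase subunits of the 19S cap, 3 cap assembly chaperones, 5 activators or inhibitors, and VCP.

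The proteasome is the barrel-shaped protease that degrades ubiquitin-tagged proteins in the nucleus and cytosol. Alpha rings gate the barrel, beta rings hold the active sites, and the 19S cap recognises, unfolds and feeds in the substrate. In cells that meet interferon the catalytic beta subunits can be replaced by PSMB8, PSMB9 and PSMB10, which shifts the peptides made for antigen presentation. VCP, also called p97, is a ring-shaped ATPase that pulls ubiquitinated proteins out of complexes and membranes and hands them to the proteasome.

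The study reduced the long noncoding RNA SOX9-AS1 with a short hairpin RNA in a pair of human cell lines from triple-negative breast cancer, the type without hormone receptors or HER2 amplification, and sequenced stranded poly(A)-selected RNA 48 h after transfection. The groups of 3 libraries each were HCC1187 with sh-SOX9-AS1 (S10 to S12), HCC1187 with sh-CONTROL (S7 to S9), MDA-MB-468 with sh-SOX9-AS1 (S4 to S6) and MDA-MB-468 with sh-CONTROL (S1 to S3). The control hairpin, carried by both control groups, was sh-LacZ, against a bacterial gene. HCC1187 was grown in RPMI-1640 and MDA-MB-468 in DMEM, so line and medium cannot be told apart. Both lines are labelled basal-like, and no label says whether the 3 samples of a group were separate cultures, so the p-values measure only the spread between these samples.

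Only lane 1 of the 3 lanes of each library was used. In that lane the libraries held 6026376 to 10160040 counts and 20265 to 23915 genes with a count. Pairs of libraries within a group differed by more than sampling noise, with a chi-square per degree of freedom of 1.9 to 34.9. S4, labelled as a knockdown of MDA-MB-468, stood apart from the other libraries of its group. Over 16328 genes its log levels correlated at r = 0.988 to 0.992 with the 3 controls of the line and at r = 0.972 and 0.975 with S6 and S5. Results for MDA-MB-468 are therefore given with and without S4. Because S4 was set apart by its levels in these same data, the p-values without it may be too small. S5 and S6 are then the only knockdown libraries of that line. SOX9-AS1 itself was at 1.16, 0.697 and 0.796 CPM (TMM-scaled counts relative to library size) in HCC1187 knockdown libraries, against 2.32, 1.41 and 1.74 CPM in controls, a log2 fold change of -1.08 ± 0.36 (SE; edgeR adjusted p = 0.0349). In MDA-MB-468 its level was 5.54, 5.03 and 5.57 CPM in the knockdown libraries (S4 first), against 6.04, 7.28 and 6.54 CPM in controls, a log2 fold change of -0.30 ± 0.20 with an edgeR adjusted p of 0.417, or 0.274 without S4. SOX9-AS1 is antisense to SOX9, and as the strand setting of counting is not known here, its values may hold reads of SOX9. The log2 fold change of SOX9 was -0.49 ± 0.16 in HCC1187 (SE; edgeR adjusted p = 0.0256). In MDA-MB-468 it was -0.68 ± 0.14 (edgeR adjusted p = 0.205), and without S4 it was -0.82 ± 0.10 (adjusted p = 2.03e-05). Hormone receptor and HER2 markers (ESR1, PGR and ERBB2) summed to 87.7 to 96.1 CPM in HCC1187 controls and 64.5 to 72.7 CPM in MDA-MB-468 controls. In knockdown libraries of these lines the sums were 88.6 to 110.7 CPM and 64.6 to 104 CPM. The epithelial and basal-like markers of the labelled cell type were lower in libraries labelled HCC1187 than in MDA-MB-468 libraries. Some were nearly absent in HCC1187. The summed level of 4 basal-like markers (KRT5, KRT14, KRT17 and EGFR) was 56.9 to 68.3 CPM in HCC1187 knockdown libraries and 57.7 to 66.9 CPM in HCC1187 controls, against 6346 to 8527 CPM and 8283 to 8453 CPM in the same groups of MDA-MB-468. KRT5, KRT14 and KRT19 were at 0 or under 0.2 CPM in each HCC1187 library and EPCAM was at 3.68 to 7.39 CPM, while EGFR was at 52.7 to 58.6 CPM and KRT8 at 149.3 to 189.6 CPM, and the 5 epithelial markers summed to 235.3 to 299.7 CPM there, against 5175 to 5953 CPM in MDA-MB-468. Fibroblast markers summed to 51.0 to 63.0 CPM in HCC1187 libraries, against 12.5 to 21.0 CPM in MDA-MB-468. COL1A1 made up most of that sum, at 44.6 to 56.6 CPM against 11.9 to 20.5 CPM, and COL1A2 was at 0 in each library. Immune markers summed to 0 to 0.707 CPM against 81.2 to 155.6 CPM, nearly all of it CD14, and endothelial markers to 0 to 1.16 CPM against 2.17 to 6.28 CPM. In MDA-MB-468, the basal-like sum was lower in S5 and S6 than in S4 and the controls, with KRT5 at 756.9 and 740.6 CPM in S5 and S6, against 1417 to 1599 CPM in controls and 1450 CPM in S4. The part of these marker differences in the results below was not tested.

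In HCC1187, SOX9-AS1 knockdown went with a 1.89-fold higher level of VCP and with higher PSMB9 and PSME2, while no subunit of the constitutive proteasome passed the test. Of 45 members tested, 3 rose and none fell in knockdown cells at an adjusted p under 0.05 (edgeR quasi-likelihood test, Benjamini-Hochberg adjustment over all genes tested). Of all 14970 genes tested, 9.78% rose and 13.1% fell, so the share of members that rose, 6.67%, was below that of all genes. At an unadjusted p under 0.05, 7 members were higher and 1 was lower, which is 8 of 45, against 35.4% of all genes. DESeq2 called the same 3 higher and none lower. The median log2 fold change was 0.04 over the members and 0.01 over all genes.

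VCP was at 251.6, 233.1 and 244.8 CPM in the knockdown libraries of HCC1187, against 123.4, 116.9 and 142.8 CPM in controls. Its groups did not overlap, and the log2 fold change was 0.92 ± 0.09 (SE, n = 3 each; edgeR adjusted p = 1.39e-07). Among the 14970 genes tested, 471 moved as far as VCP or further in either direction. The gene spans 35056064 to 35073249 of chromosome 9 (GRCh38, minus strand). Its 10 nearest genes, 5 on each side, were looked up after its value was seen. Of the 9 tested in this comparison 1 rose, PIGO by 0.36 on the log2 scale, while 9.78% of all genes rose. The range of the 9 was -0.35 to 0.43.

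PSMB9, the inducible partner of the caspase-like subunit PSMB6, was at 4.65, 5.99 and 6.01 CPM in HCC1187 knockdown libraries, against 2.42, 3.46 and 3.28 CPM in controls. Every knockdown library was above every control, with a log2 fold change of 0.87 ± 0.22 (SE; edgeR adjusted p = 0.00642), on 32 to 68 and 25 to 32 counts per library in those groups. PSME2, a subunit of the interferon-inducible PA28 activator, was at 73.9, 70.8 and 76.4 CPM in knockdown libraries, against 57.6, 59.3 and 54.9 CPM in controls. Its log2 fold change was 0.36 ± 0.09 (SE; edgeR adjusted p = 0.00626), and its groups did not overlap either. VCP, PSMB9 and PSME2 were chosen by the edgeR test on these libraries, so their lack of overlap is a description and no support. PSME1, which forms the same ring with PSME2, was at 77.1, 73.7 and 78.1 CPM against 66.8, 73.7 and 74.0 CPM in controls, with a log2 fold change of 0.09 ± 0.09 and an edgeR adjusted p of 0.523.

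At the depth of the 1 lane used, the other inducible subunits were too low in HCC1187 for a firm statement. PSMB8, which replaces PSMB5, was at 1.31, 1.25 and 2.39 CPM in knockdown libraries, against 1.07, 1.41 and 1.44 CPM in controls, on 45 and 38 counts summed over each group (edgeR adjusted p = 0.407). PSMB10, which replaces PSMB7, had 20 counts over the knockdown group and 22 over the controls and was below the filter on low counts. PSMB11 of the thymus proteasome had none in either group.

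**Figure D1:**
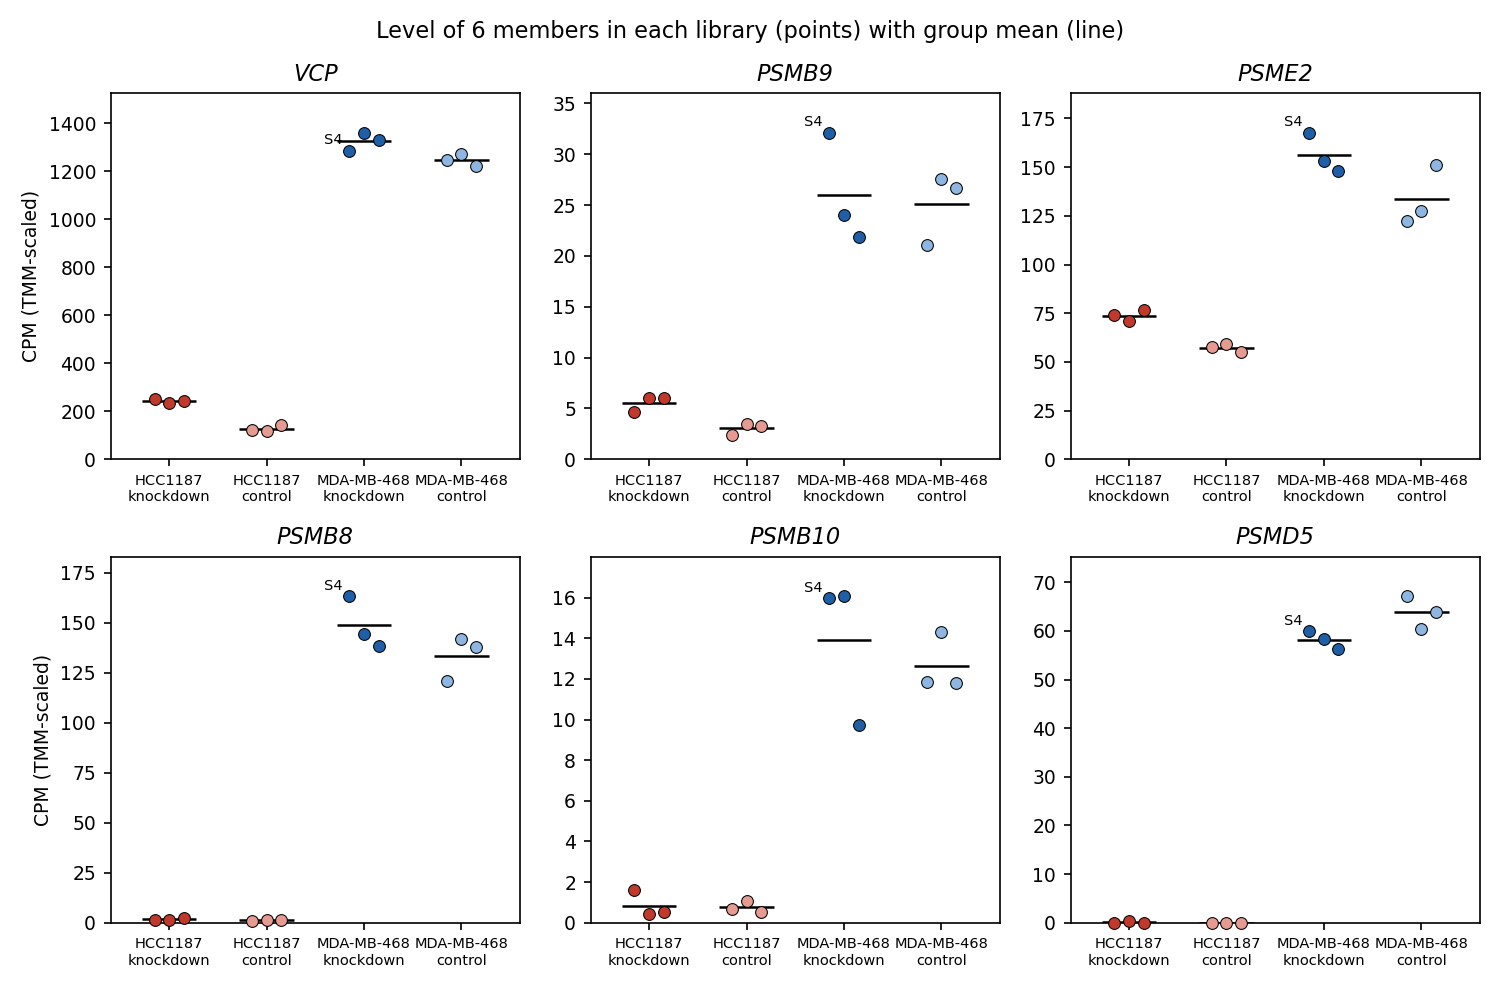
CPM (vertical axis, from 0) of 6 members in each library (points) of the 4 groups (horizontal axis), with the group mean as a line. VCP, PSMB9 and PSME2, chosen by the test on these libraries, are higher in HCC1187 knockdown libraries than in HCC1187 controls without overlap. PSMB8, PSMB10 and PSMD5 are at or near 0 in HCC1187, and S4 is marked in the MDA-MB-468 knockdown group.

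The promoters of the 3 members that rose in HCC1187 are shown because these are the members that passed the test. They run from 250 bases before the RefSeq start to 50 after it (GRCh38.p14), on the strand of the gene. In the VCP promoter, chr9:35072576-35072875 on the minus strand, capitals mark CCAAT boxes on either strand, the site read by the NF-Y factors. In the PSMB9 promoter, chr6:32853942-32854241 on the plus strand, capitals mark the core of an antioxidant response element, the type of site bound by NFE2L1 and NFE2L2, of which NFE2L1 drives proteasome genes when the proteasome is inhibited. In the PSME2 promoter, chr14:24146561-24146860 on the minus strand, capitals mark an interferon element. The capitals mark 1 motif in each promoter, and other matches are left in lower case: the PSMB9 promoter also holds 1 CCAAT box, and those of VCP and PSME2 hold 1 antioxidant response element core each.
VCP: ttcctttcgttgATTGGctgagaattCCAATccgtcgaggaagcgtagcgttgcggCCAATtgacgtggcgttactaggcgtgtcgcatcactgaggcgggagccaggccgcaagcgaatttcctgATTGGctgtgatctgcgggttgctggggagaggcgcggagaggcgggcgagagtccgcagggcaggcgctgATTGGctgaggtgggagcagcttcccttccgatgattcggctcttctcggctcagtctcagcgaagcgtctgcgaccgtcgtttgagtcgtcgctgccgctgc
PSMB9: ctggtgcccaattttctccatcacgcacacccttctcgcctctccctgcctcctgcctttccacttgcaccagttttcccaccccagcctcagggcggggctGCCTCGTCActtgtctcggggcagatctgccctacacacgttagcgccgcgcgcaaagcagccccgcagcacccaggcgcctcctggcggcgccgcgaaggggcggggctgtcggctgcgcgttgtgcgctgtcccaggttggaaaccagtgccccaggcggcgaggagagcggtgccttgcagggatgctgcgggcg
PSME2: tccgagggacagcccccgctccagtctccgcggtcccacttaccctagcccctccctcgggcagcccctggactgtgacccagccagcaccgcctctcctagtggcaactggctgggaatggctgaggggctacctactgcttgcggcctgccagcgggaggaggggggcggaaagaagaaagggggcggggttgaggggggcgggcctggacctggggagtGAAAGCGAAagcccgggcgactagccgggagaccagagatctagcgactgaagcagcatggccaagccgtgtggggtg

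The search read both strands for 4 motifs: CCAAT, the antioxidant response element core TGACNNNGC, the interferon element GAAANNGAA and TTCNNNGAA, the site of interferon-activated STAT factors. The VCP promoter held 5 CCAAT boxes, and no other of the 43 members with a RefSeq promoter held more than 2. CCAAT was found in 20 members (46.5%) and in 35.7% of 27305 promoters of the same length. TGACNNNGC was found in 14 members (32.6%), VCP, PSMB9 and PSME2 among them, and in 13.6% of all promoters. The interferon element was found in 7 members (16.3%), among them PSME1, PSME2 and PSMB10, and in 8.29% of all promoters. TTCNNNGAA was found in 5 members (11.6%) and in 7.88% of all promoters. A match in these windows is a description of letters and not evidence that a factor binds there.

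No constitutive subunit of the core or cap passed the test in HCC1187. Of the 32 members of the alpha ring, beta ring and cap subunits, 31 were tested, with log2 fold changes of -0.22 to 0.21 and a median of 0.04. At an unadjusted p under 0.05, 3 were higher and 1 was lower, while 35.4% of all genes had such a p. None of the 31 passed the edgeR test or was called by DESeq2. PSMD11, a scaffold subunit of the cap lid, had the lowest value of these, at 169.4, 172.1 and 175.2 CPM in knockdown libraries against 212.4, 206.9 and 178.9 CPM in controls (log2 fold change -0.22 ± 0.09, edgeR adjusted p = 0.0687), and it was called lower when S9 was left out. With library totals alone in place of TMM scaling, 6 members were called higher, the added ones being PSMB4, PSMC3 and PSMD4, and the share of higher calls over all genes was 57.7% in place of 42.8%. VCP, PSMB9 and PSME2 were called higher in each of the 12 alternative settings run.

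In MDA-MB-468 no member passed the test when all 6 libraries were used. Of 47 members tested, none rose or fell by edgeR, none had an unadjusted p under 0.05, and DESeq2 called none. The background was also nearly empty, since 1 of 13638 genes, or 0.00733%, was called by edgeR in either direction, although 2554 had an unadjusted p under 0.05 and DESeq2 called 226 higher and 78 lower. VCP had 1286 CPM in S4, 1361 CPM in S5 and 1330 CPM in S6, against 1249, 1271 and 1223 CPM in controls, with a log2 fold change of 0.09 ± 0.08 (SE; edgeR adjusted p = 0.548). Each knockdown library lay above each control by a small margin. How many of all genes separate in this way was not computed, so this is a description and no support.

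Without S4, 11 of 47 members passed the test in MDA-MB-468, in both directions. Of the members tested, 4 rose (8.51%) and 7 fell (14.9%) in knockdown libraries by the edgeR test, against 20% and 20.7% of the 13947 genes tested. Both shares were below those of all genes. Most of the 11 belong to the cap or to the activators and inhibitor, and PSMB2 was the one core subunit among them: PSMD10, PSME4, PSMC6 and PSMD7 rose, and PSME3, PSMD3, PSMC4, PSMD2, PSMD11, PSMF1 and PSMB2 fell. The median log2 fold change was -0.06 over the members and -0.00142 over all genes.

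Of the activators and the inhibitor, 1 rose and 2 fell. PSME3, the nuclear PA28 gamma activator, was at 120.5 and 126.0 CPM in S5 and S6, against 185.5, 187.6 and 190.5 CPM in controls, and at 195.6 CPM in S4. Its log2 fold change was -0.61 ± 0.08 without S4 (SE; edgeR adjusted p = 3.76e-05) and -0.35 ± 0.18 with it (adjusted p = 0.318). PSME4, the PA200 activator, went the other way, at 220.1 and 237.2 CPM in S5 and S6, against 179.9, 174.0 and 171.4 CPM in controls, and at 164.3 CPM in S4 (log2 fold change 0.38 ± 0.08 without S4, edgeR adjusted p = 0.00169). PSMF1, which encodes the proteasome inhibitor PI31, fell by 0.27 on the log2 scale (edgeR adjusted p = 0.0162).

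PSMD10, the cap chaperone also known as gankyrin, rose most. It was at 94.0 and 108.1 CPM in S5 and S6, against 78.2, 72.9 and 64.0 CPM in controls, and at 68.4 CPM in S4. The log2 fold change was 0.49 ± 0.10 without S4 (edgeR adjusted p = 0.00185) and 0.33 ± 0.17 with it (adjusted p = 0.313). Of the cap ATPases, PSMC6 was at 106.1 and 109.6 CPM in S5 and S6, against 93.6, 89.3 and 88.5 CPM in controls, with 87.2 CPM in S4 and a log2 fold change of 0.25 ± 0.09 (edgeR adjusted p = 0.0336). PSMC4, another ATPase of the same ring, fell, at 155.7 and 141.2 CPM against 169.7, 174.9 and 197.6 CPM in controls, with 210.8 CPM in S4 and a log2 fold change of -0.29 ± 0.09 (edgeR adjusted p = 0.0210). Of the lid and base subunits, PSMD3 was at 119.1 and 108.5 CPM in S5 and S6, against 144.4, 145.2 and 168.0 CPM in controls, with 155.4 CPM in S4 and a log2 fold change of -0.43 ± 0.10 (edgeR adjusted p = 0.00236). PSMD2 and PSMD11 fell by 0.28 each, PSMD7 rose by 0.24 and the core subunit PSMB2 fell by 0.26 on the log2 scale. All 7 tested alpha subunits, all 4 core chaperones and the 3 tested inducible subunits missed the threshold, as did VCP (log2 fold change 0.10 ± 0.07, edgeR adjusted p = 0.272).

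**Figure D2:**
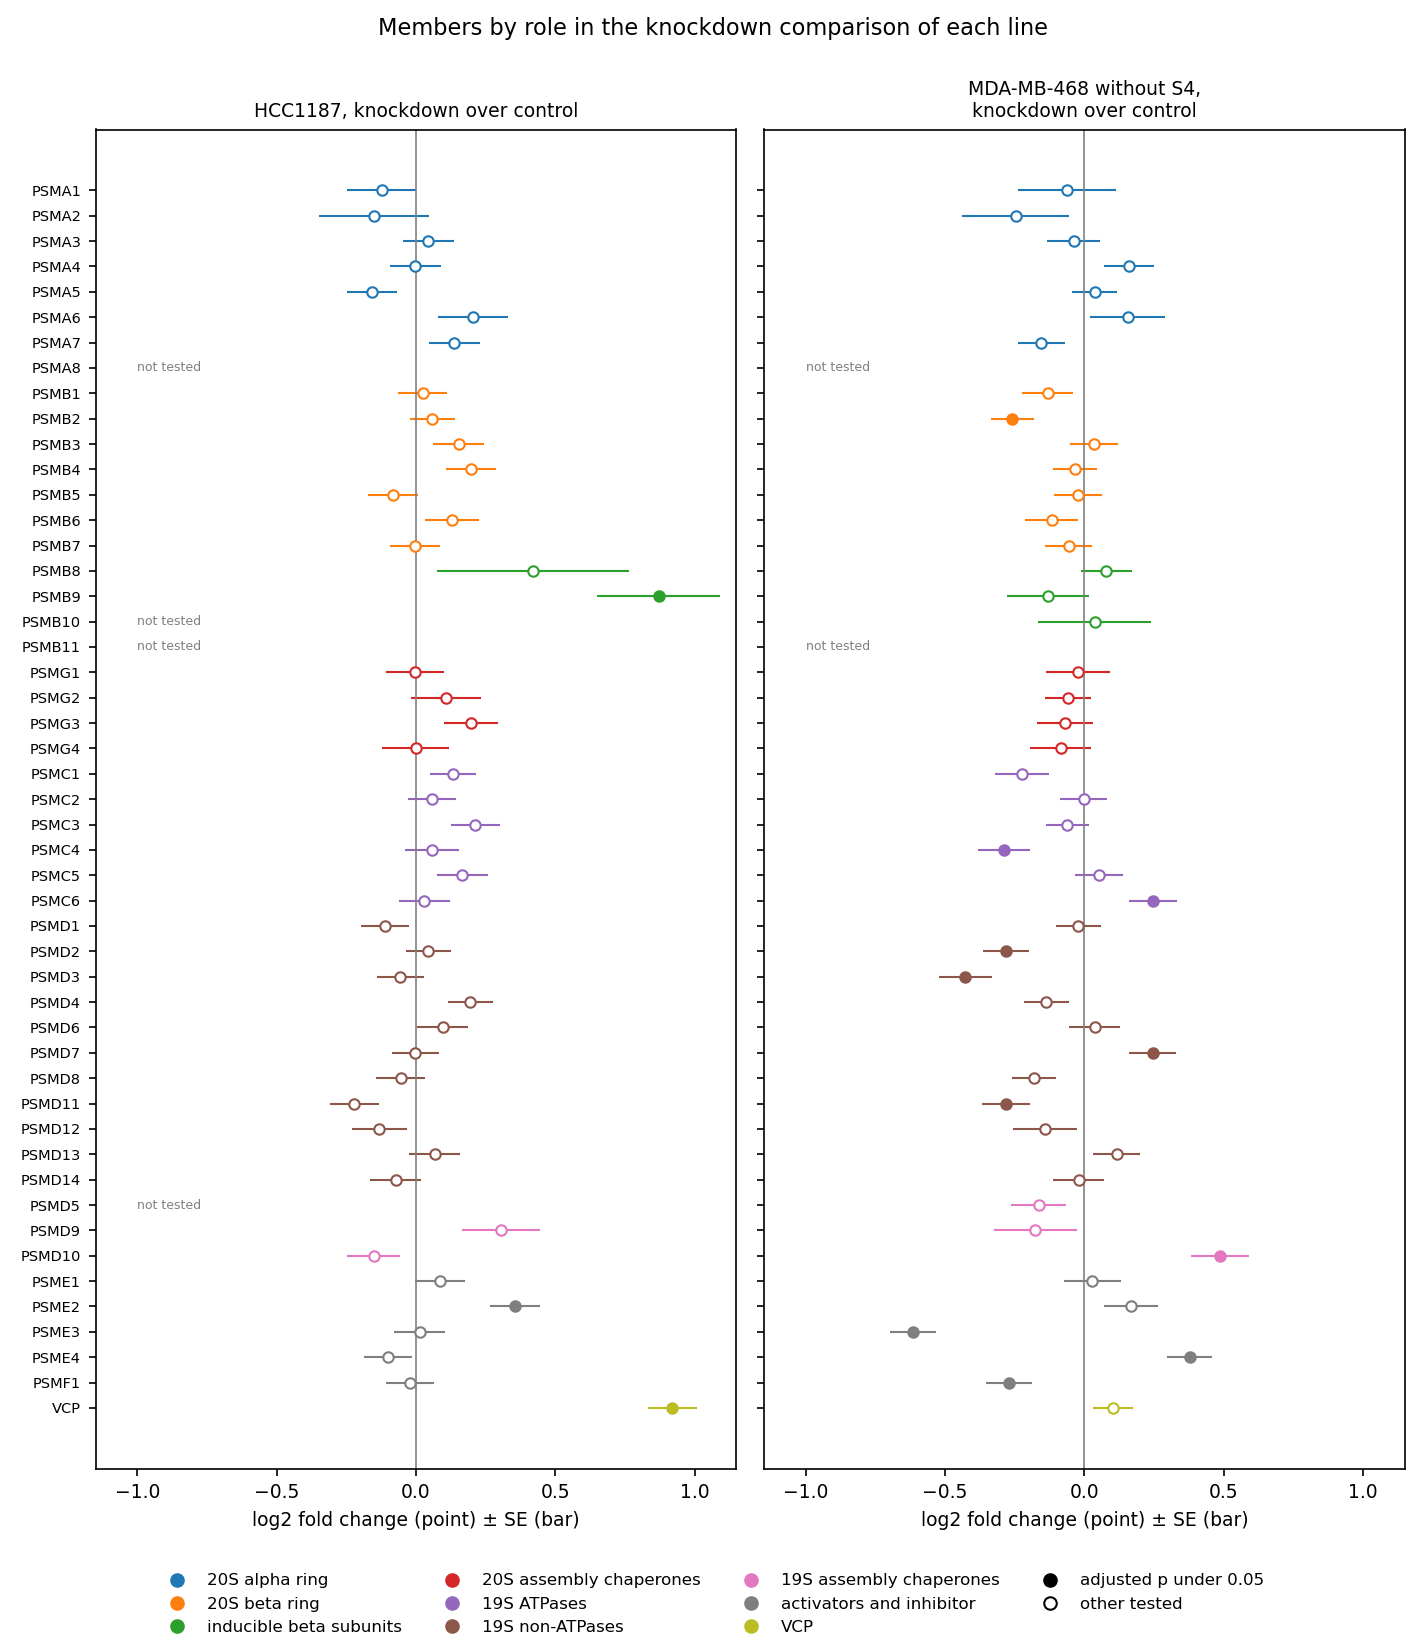
log2 fold change of knockdown over control (horizontal axis; point with SE bar) of each member (vertical axis, grouped and coloured by role) in HCC1187 and in MDA-MB-468 without S4, with filled points for an edgeR adjusted p under 0.05. In HCC1187 the 3 filled points are VCP, PSMB9 and PSME2, and in MDA-MB-468 the 11 filled points lie on both sides of 0, between -0.61 and 0.49.

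These 11 members were chosen by the fit of S5 and S6 against the controls, so that both lie outside the range of the 3 controls is a description and no support. S4 lay within the control range for 3 of the 11. It was on the same side of the control mean as S5 and S6 for 2, PSMB2 and PSMD11, and on the other side for the rest. Its log2 distance from the control mean was -0.09 to 0.22, with PSMC4 at 0.22 and PSMF1 at 0.11. The number of calls depended on single libraries also within the remaining 5: leaving out S6 as well left PSMD10 and PSME4 higher and PSME3 lower, and those were the 3 members called in each of the 11 alternative settings. Leaving out S2 gave 2 higher and 3 lower, and leaving out S1 or S5 gave 2 higher and 6 or 4 lower.

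**Figure D3:**
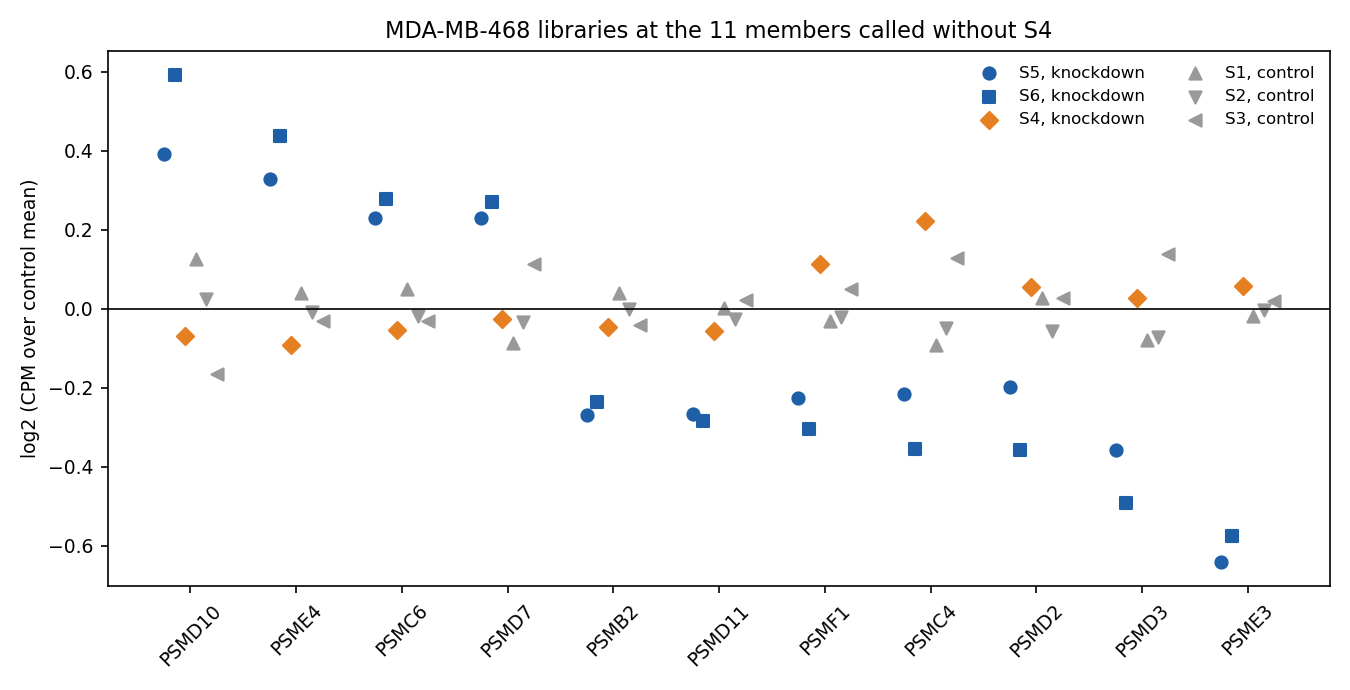
log2 of the CPM over the mean of the 3 controls (vertical axis) for the 6 MDA-MB-468 libraries at the 11 members called without S4 (horizontal axis), with S5 and S6 in blue, S4 in orange and controls in grey. S5 and S6 lie outside the controls for each member, and S4 stays between -0.09 and 0.22.

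No member was called in both lines: 45 were tested in both, and 1 of them, PSMD11, had an unadjusted p under 0.05 in HCC1187 and in MDA-MB-468 without S4. The difference between the lines was tested as the interaction of line and knockdown, HCC1187 minus MDA-MB-468. SOX9-AS1 itself passed the edgeR test of knockdown in HCC1187 and not in MDA-MB-468, with or without S4. Its own interaction did not pass with all libraries (-0.77 ± 0.38, edgeR adjusted p = 0.268). With all 12 libraries, VCP was the one member of 47 called, with a difference of 0.84 ± 0.12 on the log2 scale (SE; edgeR adjusted p = 0.00318), while 3.75% of 16328 genes were called in either direction. Another 3 members had an unadjusted p under 0.05, which with VCP is 4 of 47, against 20.6% of all genes. DESeq2 also called VCP alone. Without S4 the difference for VCP was 0.82 ± 0.12 (edgeR adjusted p = 9.66e-06). In that fit 8 members responded more upward in HCC1187 than in MDA-MB-468 and 2 more downward, which is 17.0% and 4.26% of the 47, against 12.4% and 13.2% of 16807 genes. PSMB9 (1.00 ± 0.26, adjusted p = 0.00572) and PSME3 (0.63 ± 0.13, adjusted p = 4.81e-04) followed VCP among the 8, which also held PSMC1, PSMD2, PSMD3, PSMD4 and PSMB2, and PSMD10 (-0.64 ± 0.15, adjusted p = 0.00179) and PSME4 (-0.48 ± 0.12, adjusted p = 0.00313) were the 2 (edgeR). PSME2, called in HCC1187 alone, did not pass this test (difference 0.19 ± 0.13, edgeR adjusted p = 0.320 without S4).

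The control libraries of the lines differed far more than knockdown did. In HCC1187 controls against MDA-MB-468 controls, 8 of 47 members were higher (17.0%) and 30 lower (63.8%) by the edgeR test, against 43.6% and 40.4% of 15592 genes. The median log2 fold change was -0.59 over the members and 0.06 over all genes. The members together took 0.486% to 0.520% of counts in HCC1187 controls and 0.695% to 0.706% in MDA-MB-468 controls. VCP alone held 1082 to 1392 of the 41904 to 49086 member counts in HCC1187 controls. In MDA-MB-468 controls it held 9252 to 11162 of 55798 to 68697, so the gap in share is in large part that of VCP. In bulk samples fewer cells of a type and less RNA per cell cannot be told apart. These controls also enter the knockdown comparisons, so the values of the comparisons are not independent.

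VCP was 9.69-fold lower in HCC1187 controls, at 123.4, 116.9 and 142.8 CPM against 1249, 1271 and 1223 CPM in MDA-MB-468 controls (log2 fold change -3.28 ± 0.08, edgeR adjusted p = 4.59e-19). Per length, in TPM (counts divided by exon length and scaled to a common sum), VCP averaged 111.3 TPM in HCC1187 controls and 809.2 TPM in MDA-MB-468 controls, where it was the highest of the members. In HCC1187 knockdown libraries it averaged 209.4 TPM. TPM were not TMM-scaled, so the gap between the lines in TPM differs from the edgeR fold change. Of the 10 nearest tested genes around VCP, looked up after its value was seen, 8 were lower and 2 higher in HCC1187 controls. Of all genes, 40.4% were lower and 43.6% higher. The 10 had a median log2 fold change of -1.54, with the neighbours FANCG and PIGO at -1.40 and -2.55. In the line comparison 2854 of 15592 genes were as far from 0 as VCP or further.

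PSMD5, which encodes a chaperone of the cap base, had no count in HCC1187 controls. It had 440 to 600 counts per library in MDA-MB-468 controls, or 67.1, 60.4 and 63.9 CPM. Against a floor of 3 counts over the 27073127 counts of the HCC1187 control group, PSMD5 was at least 528-fold lower there than in MDA-MB-468 controls (edgeR adjusted p = 9.35e-18). The HCC1187 knockdown group had 2 counts, both in S11, and in MDA-MB-468 knockdown libraries PSMD5 was at 60.0, 58.3 and 56.2 CPM. The gene CUTALP, whose span overlaps that of PSMD5, had 2 counts in the HCC1187 control group and 411 in that of MDA-MB-468. Of the next tested genes outward, looked up after the value was seen, PHF19 had a log2 fold change of 0.17 (edgeR adjusted p = 0.199) and B3GNT10 was higher in HCC1187 controls, at 0.76 (adjusted p = 0.00647). PSMD5 lies at 120815496 to 120842984 of chromosome 9.

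The inducible subunits were also far lower in HCC1187. PSMB8 was at 1.07, 1.41 and 1.44 CPM in HCC1187 controls, against 121.0, 141.9 and 137.6 CPM in MDA-MB-468 controls, a 101-fold difference (log2 fold change -6.66 ± 0.15, edgeR adjusted p = 3.28e-20). PSMB10 was at 0.678, 1.08 and 0.513 CPM against 11.9, 14.3 and 11.8 CPM (log2 fold change -4.03 ± 0.26, edgeR adjusted p = 3.34e-12), and PSMB9 was at 2.42, 3.46 and 3.28 CPM against 21.0, 27.6 and 26.7 CPM (-3.02 ± 0.18, adjusted p = 9.02e-13). Their constitutive partners PSMB5, PSMB6 and PSMB7 did not pass the test in the same comparison. PSMB8 made up 0.323% to 0.483% of the summed PSMB8 and PSMB5 level per length in HCC1187 controls, against 28.5% to 32.7% in MDA-MB-468 controls. The share of PSMB9 with PSMB6 was 1.38% to 2.07% against 9.36% to 13.3%, and in HCC1187 knockdown libraries it was 2.11% to 3.42%. PSME2 followed the inducible subunits with 57.6, 59.3 and 54.9 CPM against 122.1, 127.3 and 151.3 CPM (log2 fold change -1.21 ± 0.09, edgeR adjusted p = 3.74e-11), and PSME1 differed less (-0.50 ± 0.09, adjusted p = 2.65e-05).

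Among the other roles the subunits did not differ by a common factor. All 4 core assembly chaperones were lower in HCC1187 controls, from PSMG2 at a log2 fold change of -2.42 to PSMG3 at -0.63. Of the 7 tested alpha subunits 5 were lower and 2 higher, the higher ones being PSMA1 (0.65 ± 0.14, edgeR adjusted p = 1.62e-04) and PSMA4 (0.61 ± 0.08, adjusted p = 1.72e-07). PSMA4 was at 245.3, 235.8 and 220.9 CPM in HCC1187 controls, against 165.1, 154.1 and 144.4 CPM in MDA-MB-468 controls. PSMA1 averaged 30.1 ± 3.58 CPM in HCC1187 controls and 19.3 ± 3.76 CPM in MDA-MB-468 controls (SD, n = 3 each). Of the 7 constitutive beta subunits PSMB3 was higher, PSMB2 and PSMB4 were lower and 4 did not pass the test.

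The cap subunits were as mixed. Of the 6 ATPases PSMC5 was higher and PSMC2, PSMC3 and PSMC4 were lower, with PSMC4 lowest at a log2 fold change of -1.59. Of the 11 non-ATPase subunits 3 were higher and 6 lower. PSMD11 had the highest log2 fold change of the members, at 212.4, 206.9 and 178.9 CPM in HCC1187 controls against 116.6, 114.3 and 118.2 CPM in MDA-MB-468 controls (0.79 ± 0.08, edgeR adjusted p = 5.97e-09), and PSMD8 the lowest of this role at -1.92. The chaperone PSMD10 was higher (0.50 ± 0.09, adjusted p = 1.95e-05), and PSME4 did not pass the test (0.11 ± 0.07, adjusted p = 0.162). With library totals alone the median log2 fold change of all genes was 0.29 in place of 0.06 and that of the members -0.36 in place of -0.59, a like shift, and 14 members were called higher and 27 lower. PSMA6, PSMD13 and PSME3 then lost their lower call, with log2 fold changes of -0.13, -0.01 and -0.16, and the list of higher members gained PSMB5, PSMB7, PSMC1, PSMC6, PSMD6 and PSME4. Leaving out S7 left 5 higher, without PSMC5, PSMD3 and PSMD12.

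**Figure D4:**
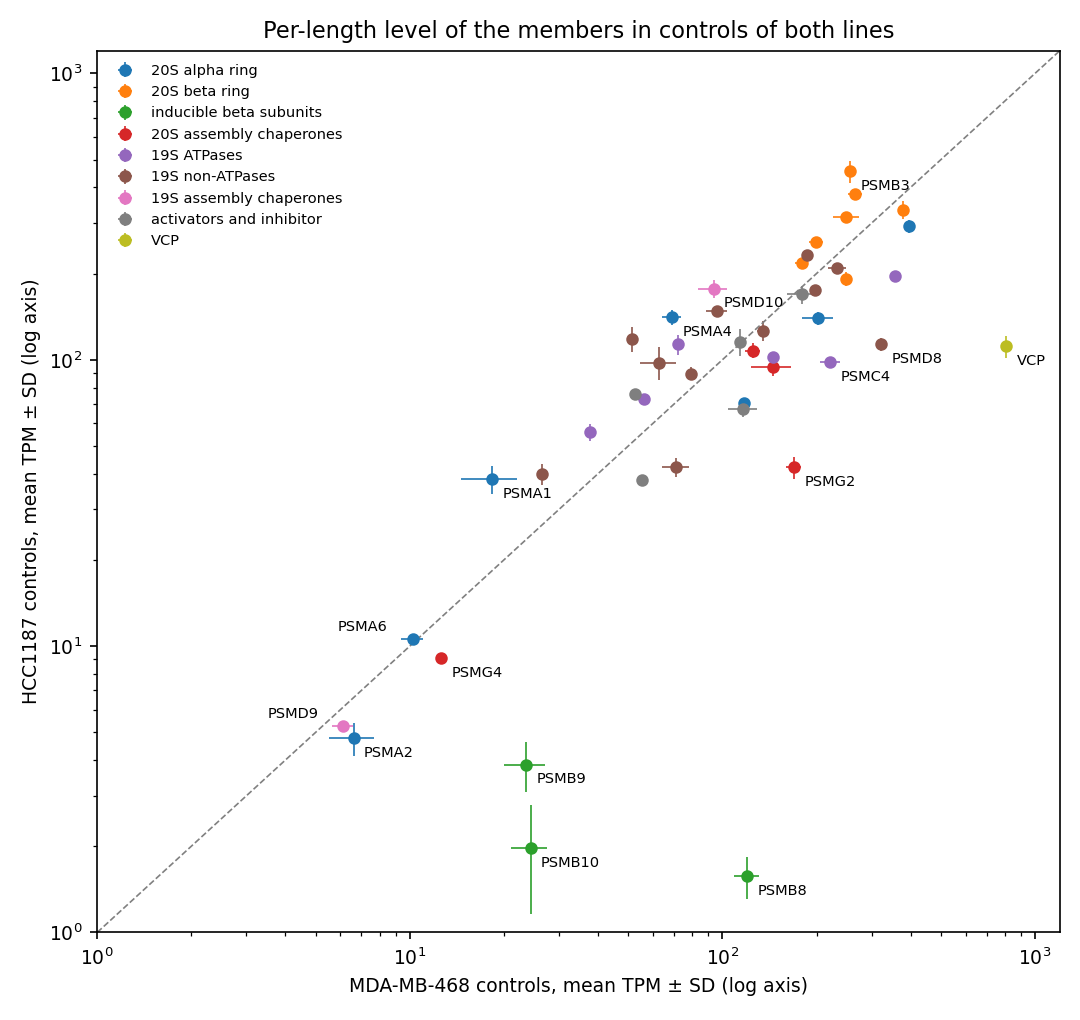
Mean TPM ± SD (n = 3 each) of the members in HCC1187 controls (vertical axis) and MDA-MB-468 controls (horizontal axis), both on log axes and coloured by role, with a dashed line of equal level. PSMD5, PSMA8 and PSMB11 are not drawn, because their HCC1187 mean was 0. PSMB8, PSMB9, PSMB10, PSMG2 and VCP lie farthest below the line. TPM were not TMM-scaled, so the side of the line can differ from the edgeR result. PSMA6, called lower in HCC1187 controls by edgeR, averaged 10.6 TPM there and 10.2 TPM in MDA-MB-468 controls.

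Within a line, subunits of the same ring differed widely in level per length. With the exon length of each gene as its length, in HCC1187 controls the 7 beta subunits lay between 191.9 TPM for PSMB2 and 454.5 TPM for PSMB3, and in MDA-MB-468 controls between 179.1 TPM for PSMB6 and 377.2 TPM for PSMB4. The order depended on that length: with the longest transcript, PSMB2 was lowest in MDA-MB-468 controls at 202.8 TPM, below PSMB6 at 225.8 TPM. The alpha subunits spread further, with PSMA7 at 293.2 TPM in HCC1187 controls and 395.1 TPM in MDA-MB-468 controls, but PSMA2 at 4.77 and 6.61 TPM and PSMA6 at 10.6 and 10.2 TPM in the same groups. PSMA8 of the testis proteasome had at most 2 counts in a library. PSMA1, PSMA2, PSMA6, PSMD9 and PSMB10 each share 14.1% to 34.8% of their exon bases with another annotated gene on the same strand (GENCODE v29), and PSMA2, PSMA6 and PSMD9 were among the lowest constitutive members. The rule for counting reads in shared exons is not known here, so these levels are uncertain, and the part of the overlap in them was not tested. PSMC1 and PSMD7 share 75.8% and 30.7% of their exon bases with genes on the opposite strand, and without the strand setting their values are uncertain too. Processed pseudogenes took few reads: the highest, PSMC1P1, had 35 counts in all 12 libraries.

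Other genes of the pathway were read from 5 lists, whose counts stand against the same shares of all genes: 9.78% rose and 13.1% fell in HCC1187, and 20% rose and 20.7% fell in MDA-MB-468 without S4. Of 28 cofactors of VCP and of degradation at the endoplasmic reticulum, 2 rose and 8 fell in HCC1187 knockdown cells. The 2 that rose, UBXN1 and UBXN6, kept their call in only 4 and 2 of 12 alternative settings. The deubiquitinase YOD1 fell most, at 43.1, 62.3 and 56.9 CPM in knockdown libraries against 96.0, 118.9 and 114.7 CPM in controls (log2 fold change -1.03 ± 0.11, edgeR adjusted p = 1.21e-06). In MDA-MB-468 without S4, 3 rose, YOD1 among them (0.34 ± 0.10, edgeR adjusted p = 0.0154), and 3 fell. The difference between the lines for YOD1 was -1.18 ± 0.23 with all libraries (edgeR adjusted p = 0.0147).

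Of 13 genes that control proteasome transcription, 2 rose and 3 fell in HCC1187 knockdown cells. NGLY1 and NFE2L3, which rose, kept their call in 5 and 7 of 12 alternative settings, and DDI2, which fell, in 6. MAFF, a small partner of the NFE2L factors, fell by 0.99 and NFYA, a subunit of the CCAAT-binding factor NF-Y, by 0.52 on the log2 scale (edgeR adjusted p = 3.98e-04 and 2.57e-04), and both kept their call in all 12. In MDA-MB-468 without S4 none rose and 6 fell. Among these were DDI2, the protease that activates NFE2L1 (-0.56 ± 0.11), and NFE2L1 itself (-0.43 ± 0.08), with edgeR adjusted p-values of 0.00103 and 6.92e-04. NFE2L1 was at 154.7 and 148.5 CPM in S5 and S6, against 204.1 ± 6.67 CPM in controls (SD, n = 3), with 210.8 CPM in S4.

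Of 16 proteasome genes outside the name rule, 2 rose and 5 fell in HCC1187, and 1 rose and 4 fell in MDA-MB-468 without S4. PAAF1, which binds the cap ATPases, rose by 0.63 in HCC1187 and by 0.51 in MDA-MB-468 without S4 on the log2 scale (edgeR adjusted p = 2.72e-04 and 0.00358). USP14, a deubiquitinase of the cap, fell by 0.41 in HCC1187 and ADRM1, a ubiquitin receptor of the cap, by 0.48 in MDA-MB-468 without S4. Of 14 genes for ubiquitin and its activation, 4 fell and none rose in each line by the edgeR test (MDA-MB-468 without S4), with UBE2L3 among them in both (-0.56 and -0.27). Of the 11 class I partners of the inducible proteasome, 2 rose in HCC1187 knockdown cells, the transactivator NLRC5 (0.67 ± 0.17) and the peptide trimmer ERAP1 (0.53 ± 0.10), and none fell. In MDA-MB-468 without S4, B2M rose by 0.32 and IRF1 fell by 0.73, 2 of the list moving each way. In HCC1187 controls all 11 were lower than in MDA-MB-468 controls, with a median log2 fold change of -1.59, while 40.4% of all genes were called lower there. With S4 in the comparison, no gene of these 5 lists was called in MDA-MB-468 by edgeR.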

How the data were processed

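Poly(A)-selected RNA of the 12 samples was sequenced with a stranded paired-end protocol. Per the submitters' processing notes featureCounts 2.0.0 and HISAT2 2.1.0 were among the tools, with Trimmomatic 0.39, SAMtools, FastQC 0.11.9 and MultiQC 1.11, on GRCh38. No source used here gives the strand or overlap setting of counting. The deposited tables hold raw counts per gene for 3 lanes of each library, by the authors. The names of the columns carry no replicate number, so lane 1 of each library was used as its replicate and 24 columns of the other lanes were not used. The sum over lanes named in the choice of members was therefore not made. The libraries named S1 to S12 are those of the column names, where knockdown columns read BLANCO, a word that the labels pair with sh-SOX9-AS1.

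Counts were tested with edgeR 4.0.16 in R 4.3.3: filterByExpr (minimum count 10, minimum total 15), TMM scaling, the quasi-likelihood test and an adjusted p under 0.05 over all genes tested. CPM in the text are TMM-scaled over 12 libraries. Levels per length (TPM) used the exon length in the tables and were not TMM-scaled. The scripts were tested on simulated data. Alternatives were DESeq2 1.42.0, RLE scaling, library totals, other filters, 1 fit of all libraries and leaving out each library. VCP is named throughout, each comparison names the 3 members called with the largest change each way, and list genes follow the same rule. The members, roles and lists were chosen with earlier results of these data known. S4 is not listed in the deposited phenotype table. Floors cover counting error only, while each SE comes from the edgeR fit and includes the spread between libraries. Protein sequences are not used here. The values of 1 gene of the lists are not reported here.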

Additional observations from a re-analysis of the deposited data

Results flagged for a closer look

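The response to knockdown differed between the lines for VCP with all 12 libraries, by 0.84 on the log2 scale (HCC1187 minus MDA-MB-468; edgeR interaction test), and VCP was the one member past the threshold in that fit. Without S4, 10 members differed between the lines by the same test. The difference was upward for VCP (0.82), PSMB9 (1.00), PSME3 (0.63), PSMD3 (0.37), PSMC1 (0.36), PSMD4 (0.33), PSMD2 (0.33) and PSMB2 (0.32), and downward for PSMD10 (-0.64) and PSME4 (-0.48). What drew attention to each was this test of the difference between the lines. PSME3, PSMD10, PSME4, PSMD2, PSMD3 and PSMB2 passed the test of knockdown in MDA-MB-468 without S4 and not in HCC1187. VCP and PSMB9 passed it in HCC1187 and not in MDA-MB-468, and PSMC1 and PSMD4 passed it in neither line. SOX9-AS1 itself passed the test of knockdown in HCC1187 and not in MDA-MB-468. Groups of 3 libraries are too small for a test of single outlying libraries.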

How the results depend on the processing

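In HCC1187 the count of members called higher was 3 in each alternative except library totals alone, which gave 6, and leaving out 1 library at a time gave 3 higher and 0 to 1 lower. In MDA-MB-468 leaving out 1 library gave 0 to 4 higher and 0 to 7 lower, with calls only where S4 was left out. Without S4, leaving out a further library gave 2 to 5 higher and 1 to 8 lower. Between the controls of the lines, library totals gave 14 higher and leaving out 1 library gave 5 to 9 higher. For the difference between the lines, leaving out 1 library gave 1 to 8 higher and 0 to 2 lower, and without S4 it gave 3 to 9 higher, while library totals gave 13. Library totals moved the share of higher calls over all genes to 57.7% in place of 42.8% in HCC1187, and in the difference between the lines to 46.9% in place of 33.0%, or 59.2% in place of 48.6% without S4. Of the single members called, none changed sign in the settings run. Of the list genes called, UBE2D2 and UBQLN4 changed sign between the controls of the lines with library totals, to 0.02406 and 0.03382. Over all genes, 1 fit of all libraries called 587 higher and 912 lower in HCC1187, in place of 1464 and 1954, and leaving out 1 library gave 862 to 1326 higher. Without S4 and S6, 1803 genes were higher and 1619 lower in MDA-MB-468, in place of 2791 and 2885. In MDA-MB-468 the 1 gene called became 226 higher and 78 lower with DESeq2, 876 and 565 with no filter and 604 and 283 in 1 fit of all libraries. For the difference between the lines DESeq2 called 381 higher and 789 lower in place of 202 and 411, and leaving out 1 library gave 40 to 2088 and 89 to 2212. No paired analysis was possible because the columns carry no replicate number. With the longest transcript in place of exon length, most levels per length moved by more than their SD. Depth limits PSMB8, PSMB9 and PSMB10 in HCC1187, and PSMA8, PSMB11 and PSMD5 there were at or under the floor of 3 counts.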

Other observations

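PSMG3-AS1, the antisense neighbour of the core chaperone PSMG3, rose in HCC1187 knockdown libraries by a log2 fold change of 1.80 ± 0.27 (SE; edgeR adjusted p = 5.05e-05). PSMG3 itself was at 60.8, 53.8 and 60.8 CPM there, against 54.7, 46.9 and 50.3 CPM in controls. In MDA-MB-468 without S4, PSMG3-AS1 rose by 0.70 ± 0.24 (edgeR adjusted p = 0.0311), and with S4 the value was 0.56 ± 0.26 (adjusted p = 0.284). PSMG3-AS1 shares 3.06% of the exon bases of PSMG3 on the opposite strand. PSMB8-AS1, the antisense neighbour of the inducible subunit PSMB8, was lower in HCC1187 controls than in MDA-MB-468 controls with a log2 fold change of -5.95 (edgeR adjusted p = 3.06e-12). PSMB8-AS1 covers 20.6% of the exon bases of PSMB8 on the opposite strand and 5.66% of those of PSMB9 on the same strand. As the strand setting of counting is not known here, reads of these genes cannot be told apart from its own.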
